A study of Rattus norvegicus with 31 samples.

Results

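Mitochondrial fatty acid oxidation was followed through 10 genes that carry a long-chain fatty acid into the mitochondrion and shorten it there. The genes were picked by their place in the pathway, with earlier results of these data known, as the carnitine shuttle genes Cpt1b, Cpt2 and Slc25a20, the acyl-CoA dehydrogenases Acadvl, Acadl, Acadm and Acads, and the genes of the hydration, dehydrogenation and thiolysis steps Hadha, Hadhb and Hadh. All 10 of the 10 were among the 11289 genes of the deposited count table, and all 10 passed the filter on low counts that left 10082 genes for testing.

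The tissue was whole gastrocnemius, a mixed and mostly fast calf muscle, from 31 female Sprague Dawley rats aged 7 months and fed chow. The groups were Ucp1 knockouts kept for 14 days at 4 °C (n = 8), Ucp1 knockouts at room temperature (RT, n = 7), controls labelled wild type at 4 °C (n = 8) and controls at RT (n = 8), with 1 library per animal. Ucp1 encodes the uncoupling protein through which brown fat mitochondria make heat. The sources used here do not say how the knockout allele was made or whether controls were littermates, Ucp1 itself is not analysed here, and genotype therefore rests on the labels. The design asks how muscle responds to cold with and without this protein.

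Long-chain fatty acids enter the mitochondrial matrix as carnitine esters and are then broken down 2 carbons at a time by a repeated spiral of dehydrogenation, hydration, a further dehydrogenation and thiolysis. Oxidative muscle fibres use this pathway heavily, and its genes are known targets of PPAR nuclear receptors and their coactivator PGC-1α. Cpt1b encodes the muscle form of the outer-membrane carnitine palmitoyltransferase, the step that malonyl-CoA inhibits. Hadha and Hadhb encode the 2 subunits of the trifunctional protein, and their genes lie head to head in mammals.

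That arrangement is shown by the RefSeq promoter sequences of the rat (GRCr8). Each reaches from 250 bases before to 50 bases after the start its window was set on. For Hadhb, Acads, Cpt2 and Acadvl this start lies inside the RefSeq gene bounds, so not every window sits at the outer end of its gene. The Cpt2 window lies wholly inside its gene. In the RefSeq gene table Hadhb, on the minus strand, ends at base 31907557 of chromosome 6 and Hadha, on the plus strand, starts at base 31907801, with 243 bases between them. The promoter windows of Hadha (chr6:31907551-31907850, plus strand) and Hadhb (chr6:31907451-31907750, minus strand) share 200 bases. Acadm (chr2:245542815-245543114, minus strand) and Acads (chr12:47154083-47154382, plus strand) are shown with them because their levels varied across libraries with those of Hadhb and Hadha. Each is written 5′ to 3′ on its gene's strand, and capitals mark AGGTCA, the hexamer that nuclear receptors bind, or GGGCGG, a GC box, on either strand.
Hadha: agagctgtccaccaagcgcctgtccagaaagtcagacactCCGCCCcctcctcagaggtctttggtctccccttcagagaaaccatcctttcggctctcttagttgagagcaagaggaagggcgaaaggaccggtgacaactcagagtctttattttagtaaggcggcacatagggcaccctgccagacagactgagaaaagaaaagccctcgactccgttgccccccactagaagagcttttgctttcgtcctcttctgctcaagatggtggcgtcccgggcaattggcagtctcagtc
Hadhb: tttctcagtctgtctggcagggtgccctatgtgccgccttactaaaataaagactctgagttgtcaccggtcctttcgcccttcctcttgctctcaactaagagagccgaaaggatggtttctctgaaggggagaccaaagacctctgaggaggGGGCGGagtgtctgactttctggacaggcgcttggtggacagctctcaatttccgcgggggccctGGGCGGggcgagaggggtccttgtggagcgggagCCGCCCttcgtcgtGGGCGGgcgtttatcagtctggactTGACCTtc
Acadm: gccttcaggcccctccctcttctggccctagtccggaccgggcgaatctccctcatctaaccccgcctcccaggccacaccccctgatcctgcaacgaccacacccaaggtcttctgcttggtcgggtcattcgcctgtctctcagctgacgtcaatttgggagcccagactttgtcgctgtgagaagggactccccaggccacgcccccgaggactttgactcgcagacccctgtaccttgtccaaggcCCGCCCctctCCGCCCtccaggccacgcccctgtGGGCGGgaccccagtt
Acads: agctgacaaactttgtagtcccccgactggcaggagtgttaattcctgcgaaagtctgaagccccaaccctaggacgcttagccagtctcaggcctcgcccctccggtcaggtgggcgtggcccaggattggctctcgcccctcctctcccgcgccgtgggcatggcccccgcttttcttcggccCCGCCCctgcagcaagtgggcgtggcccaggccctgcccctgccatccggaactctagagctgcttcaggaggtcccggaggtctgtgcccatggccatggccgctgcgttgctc

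The single GC box of the Hadha window, written there as CCGCCC, is the same site as the first GC box of the Hadhb window. Of the 10 genes, 8 had an entry in the promoter table. GGGCGG, searched on both strands, was in 7 of the 8 windows and in 33.1% of the 33469 rat promoters of the same length. AGGTCA was in 2 of the 8, Hadhb and Acadvl, and in 16.2% of all promoters. The full PPAR response element, searched as AGGNCA repeated after 1 base, was in 0 of the 8 and in 0.415% of all promoters, and the estrogen-related receptor element TCAAGGTCA was in 0 of the 8 and in 0.433%. The CRE palindrome TGACGTCA was in 1, Acadm, and in 1.83% of all promoters. CCAAT was in 2, Hadha and Acads, against 37.5% of all promoters, and the NRF-1 motif, searched as GCGCA and GCGC with 1 base between, was in 0, against 4.25%. A match is a run of letters in a window and does not show binding, and these letters may also lie outside it.

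Library totals ran from 6.56 to 11.9 M counts, and every gene of the set except Hadh had at least 514 counts in every library. Values below are CPM, counts per 1 M counts, after TMM scaling. QuantSeq gives 1 tag per transcript, taken close to its poly(A) tail, so levels carry no length term but vary with how well that end of the gene is annotated. Transcripts of mitochondrial DNA took a mean of 9.43 ± 1.59% of counts in knockouts at 4 °C, 12.4 ± 1.59% in knockouts at RT, 10.3 ± 0.989% in controls at 4 °C and 12.5 ± 1.15% in controls at RT (SD). A total of 7 libraries had the lowest scores on PC1, the main axis of variation in log2 levels (35.3% of the variance): knockouts 25 and 28 at 4 °C, knockouts 9 and 12 at RT, controls 17 and 23 at 4 °C and control 1 at RT. Controls 1 and 2 at RT were outlying on the next axis (scores -62.3 and -79.8). Muscle markers were high in every library, the summed level of 12 of them running from 94495 to 196326 CPM. Since the tissue was measured in bulk, fewer cells of a type and less RNA per cell cannot be told apart.

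Acadl and Cpt1b were the most abundant of the set, with means over the 31 libraries of 808 ± 192 and 793 ± 186 CPM (SD), which did not differ beyond their spread. Acads averaged 296 ± 124 CPM, Acadm 250 ± 92.2 CPM, Hadha 219 ± 55.8 CPM and Slc25a20 180 ± 41.5 CPM. Below them came Acadvl at 143 ± 22.3 CPM, Hadhb at 132 ± 39.6 CPM and Cpt2 at 110 ± 26.96 CPM, each neighbour again within the spread of the next. Hadh stood far below the rest at 3.37 ± 2.24 CPM, from 6 to 98 counts per library. Its level was at the 23.5th percentile of all tested genes, while the other 9 were between the 89.5th and the 98.4th.

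**Figure D1:**
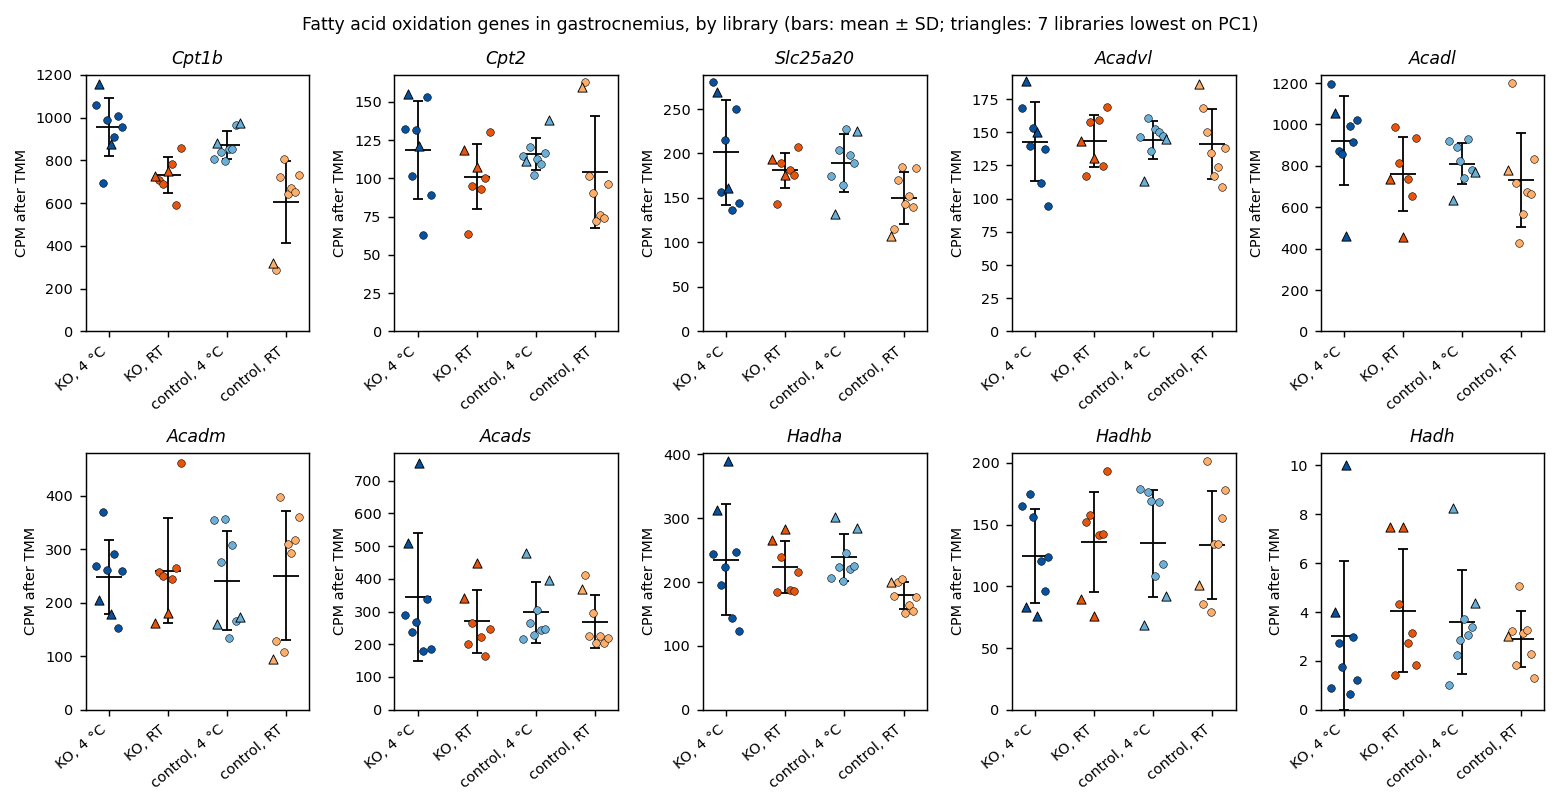
Level of each of the 10 genes in every library, in CPM after TMM scaling, for knockouts at 4 °C, knockouts at RT, controls at 4 °C and controls at RT; bars are the mean ± SD, and triangles mark the 7 libraries lowest on PC1. The Cpt1b points at 4 °C sit mostly above those at RT, with overlap in both genotypes, while Acadm, Acads, Hadhb and Hadh spread widely within each group.

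Cpt1b was higher in the cold when the effect was averaged over the genotypes, and it was the single gene of the set that passed. The averaged change was 0.46 ± 0.11 on the log2 scale (SE), a 1.37-fold higher level at 4 °C, with an adjusted p of 0.0102 in edgeR's quasi-likelihood test and 0.00225 in DESeq2, which called 1 of the 10 beside 7.53% of all genes. Over all genes 570 of 10082 passed in this comparison, 5.65%, with 370 higher (3.67%) and 200 lower (1.98%). A count of 1 in 10 is near that background. At an unadjusted p under 0.05 in edgeR there were 3 of the 10, beside 19.5% of all genes. The median log2 change of the 10 was 0.20, against -0.02 for all tested genes.

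In the carnitine shuttle, Cpt1b had 695, 972 and 1158 CPM (lowest, median, highest) in knockouts at 4 °C, against 593, 727 and 860 CPM in knockouts at RT. Controls at 4 °C had 799, 852 and 974 CPM, against 290, 660 and 805 CPM in controls at RT. In each genotype 7 of the 8 libraries at 4 °C were above the highest library at RT, and 1 overlapped. Within a genotype the change was 0.39 ± 0.16 in knockouts (adjusted p = 0.235, edgeR) and 0.53 ± 0.15 in controls (adjusted p = 0.0902), neither of which passed, while DESeq2 gave an adjusted p of 0.0418 for controls. The difference between the cold effects of the genotypes, -0.14 ± 0.22, did not pass (adjusted p = 0.940, edgeR), with a 95% interval of -0.59 to 0.31.

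The controls at RT included both of the lowest Cpt1b values of the study, 319 CPM in animal 1 and 290 CPM in animal 2, against 643 to 805 CPM in the other 6. Without those 2 libraries the cold change in controls was 0.31 (adjusted p = 0.171, edgeR), and the averaged change was 0.35 (adjusted p = 0.00181). The same 2 libraries had the lowest summed white adipocyte markers, 188 and 168 CPM, and the lowest summed slow fibre markers, 6246 and 6752 CPM. Their Adipoq, an adipocyte hormone, was at 0.630 and 0.313 CPM. Without the 7 libraries lowest on PC1 the averaged Cpt1b change was 0.39 (adjusted p = 0.0461), and without both sets it was 0.33 (adjusted p = 0.00766).

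As background for the marker counts here and in the next paragraph, 3.67% of all genes rose and 1.98% fell in the averaged comparison. These shares are from all 31 libraries. The matching shares with libraries left out are not given here, so marker counts from those fits have no background beside them. Slow fibre markers were mostly higher in the cold as well. Of 10 tested, 9 rose in the cold averaged over genotypes and 0 fell, among them the slow myosin Myh7 (0.88 ± 0.11, adjusted p = 1.09e-05, edgeR). Their summed level was 13355 to 30964 CPM in knockouts at 4 °C, against 8618 to 14644 CPM in knockouts at RT, and 18555 to 25078 CPM in controls at 4 °C, against 6246 to 16775 CPM in controls at RT, without overlap in controls. Without controls 1 and 2 at RT 8 slow markers rose, and without the 7 libraries lowest on PC1 7 did. Of 10 fast fibre markers 0 rose and 1 fell, Myoz1 (-0.35 ± 0.09). Myoz1 did not pass without controls 1 and 2 at RT, when Pvalb alone was called, as higher, and 0 fast markers passed without the 7 libraries lowest on PC1 or without both sets. Their part in the Cpt1b result was not tested.

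White adipocyte markers summed to 497 to 1295 CPM in knockouts at 4 °C, against 408 to 619 CPM in knockouts at RT, and to 449 to 771 CPM in controls at 4 °C, against 168 to 723 CPM in controls at RT. Of 10 tested, 1 rose and 0 fell, namely Retn, an adipocyte hormone (1.95 ± 0.37). Cpt1b is also a brown adipocyte gene, and of 9 brown markers 4 were in the table, Cpt1b among them. The others, Cidea, Dio2, Elovl3, Zic1 and Cox7a1, were not analysed here. Without controls 1 and 2 at RT 2 white adipocyte markers rose, Adipoq and Retn. Macrophage and neutrophil markers rose in 4 of 13 and erythroid markers in 3 of 4. Without both sets of unusual libraries 9 of 13 macrophage and neutrophil markers rose, a count without its share over all genes. Whether these cells took part in the Cpt1b result was not tested.

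**Figure D2:**
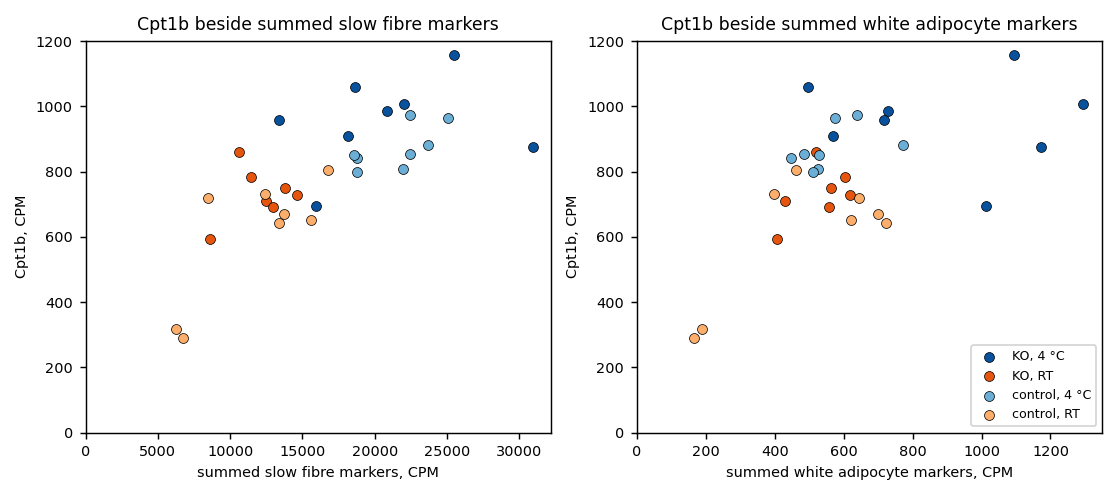
Cpt1b in CPM (vertical) against the summed level of slow fibre markers (left) and white adipocyte markers (right), both in CPM, with 1 point per library coloured by group. The 2 controls at RT with Cpt1b at 319 and 290 CPM are at the lower left of both panels, and libraries at 4 °C lie towards higher slow fibre sums.

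Slc25a20, the carrier that exchanges acylcarnitine for carnitine across the inner membrane, had 136, 188 and 280 CPM in knockouts at 4 °C, against 143, 181 and 207 CPM in knockouts at RT. Controls at 4 °C had 131, 194 and 227 CPM, against 108, 148 and 185 CPM in controls at RT. The groups overlapped in both genotypes, and the averaged change of 0.25 ± 0.11 did not pass (adjusted p = 0.194, edgeR). Cpt2, the inner-membrane transferase that releases acyl-CoA in the matrix, had 63.2, 126 and 155 CPM in knockouts at 4 °C, against 63.6, 100.4 and 130 CPM in knockouts at RT. In controls it had 102, 114 and 138 CPM at 4 °C, against 72.3, 93.5 and 163 CPM at RT. Its medians were higher at 4 °C in both genotypes, but the averaged change of 0.19 ± 0.13 was within the spread between animals (adjusted p = 0.447, edgeR). Part of that spread came from controls 1 and 2 at RT, at 160 and 163 CPM. The other controls at RT had 72.3 to 101.5 CPM, below the lowest control at 4 °C (102.1 CPM).

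Acadvl, the very long-chain dehydrogenase, was the steadiest gene of the set. It had 94.7, 145 and 189 CPM in knockouts at 4 °C, against 117, 143 and 169 CPM in knockouts at RT. Controls had 113, 147 and 161 CPM at 4 °C, against 108, 136 and 186 CPM at RT. The ranges of all 4 groups overlapped, and the averaged change was 0.01 ± 0.09 (95% interval -0.17 to 0.20). Its highest library was 1.99 times its lowest, the narrowest span among the 10.

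Acadl, the long-chain dehydrogenase, had 462, 953 and 1193 CPM in knockouts at 4 °C, against 455, 736 and 989 CPM in knockouts at RT. Controls had 634, 802 and 929 CPM at 4 °C, against 428, 696 and 1202 CPM at RT. The averaged change of 0.21 ± 0.12 did not pass (adjusted p = 0.368, edgeR). Without both sets of unusual libraries Acadl passed as well, at 0.32 (adjusted p = 0.0466).

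Acadm, the medium-chain dehydrogenase, had 153, 261 and 370 CPM in knockouts at 4 °C, against 162, 249.5 and 462 CPM in knockouts at RT. Controls had 135, 225 and 357 CPM at 4 °C, against 94.6, 302 and 397 CPM at RT. Temperature did not separate the groups (averaged change -0.06 ± 0.20, 95% interval -0.47 to 0.35), and the span lay within groups, the highest library being 4.89 times the lowest. In controls at RT, 3 libraries had 94.6 to 128 CPM and the other 5 had 294 to 397 CPM, with none between. The low libraries were controls 1, 2 and 4. Controls 1 and 2 were the pair outlying on the axis after PC1. Controls 1 and 4 had the lowest PC1 scores of the group (-43.4 and -24.4).

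Acads, the short-chain dehydrogenase, had 179, 279 and 755 CPM in knockouts at 4 °C, against 166, 247 and 448 CPM in knockouts at RT. Controls had 215, 256 and 478 CPM at 4 °C, against 202, 224 and 410 CPM at RT. The averaged change of 0.25 ± 0.18 did not pass (adjusted p = 0.491, edgeR), and it was 0.12 without knockout 28 at 4 °C. The highest library of both groups at 4 °C and of the knockouts at RT was one of the 7 lowest on PC1.

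Hadha, the α-subunit with the hydratase and long-chain hydroxyacyl-CoA dehydrogenase activities, had 123, 234 and 389 CPM in knockouts at 4 °C, against 184, 216 and 284 CPM in knockouts at RT. Controls had 202, 224 and 303 CPM at 4 °C, against 151, 178 and 205 CPM at RT, where 7 of the 8 libraries at 4 °C were above the highest at RT. Averaged over the genotypes the Hadha change was 0.24 ± 0.12, with an unadjusted p of 0.0484 and an adjusted p of 0.252 in edgeR. The cold change was 0.07 ± 0.17 in knockouts and 0.41 ± 0.16 in controls. In controls the unadjusted p was 0.0172 and the adjusted p 0.244 in edgeR. The genotypes were not shown to differ in this response, the difference being -0.34 ± 0.24 (adjusted p = 0.820, edgeR).

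Hadhb, the β-subunit with the thiolase activity, had 75.7, 122 and 175 CPM in knockouts at 4 °C, against 76.0, 142 and 193 CPM in knockouts at RT. Controls had 68.3, 143 and 179 CPM at 4 °C, against 79.2, 134 and 202 CPM at RT. The 4 ranges were alike, and the averaged change was -0.06 ± 0.16 (95% interval -0.39 to 0.28). Hadh, the short-chain hydroxyacyl-CoA dehydrogenase, had 0.651, 2.23 and 10.01 CPM in knockouts at 4 °C, against 1.41, 3.13 and 7.49 CPM in knockouts at RT. Controls had 1.01, 3.22 and 8.24 CPM at 4 °C, against 1.30, 3.09 and 5.08 CPM at RT. Its averaged change of -0.06 ± 0.31 had the widest 95% interval of the set, -0.70 to 0.59.

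In each genotype by itself, 0 of the 10 genes passed in knockouts and 0 in controls by edgeR, beside 1.38% of all genes in knockouts (1.02% higher, 0.357% lower) and 0.853% in controls (0.595% higher, 0.258% lower). At an unadjusted p under 0.05 there were 1 in knockouts and 3 in controls, beside 14.3% and 14.2% of all genes, and DESeq2 called 0 and 1, beside 3.19% and 2.17% of all genes. The sign was positive for 6 of 10 in knockouts and 9 of 10 in controls, with medians of 0.11 and 0.15, against 0.02 and -0.03 for all genes. With 1 library left out these medians ran from 0.045 (without knockout 10 at RT) to 0.17 (without knockout 31 at 4 °C), and from 0.10 (without control 5 at RT) to 0.28 (without control 2 at RT). The values at 4 °C and RT were fully separate for 0 of the 10, beside 0.546% of all genes in knockouts and 0.436% in controls.

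**Figure D3:**
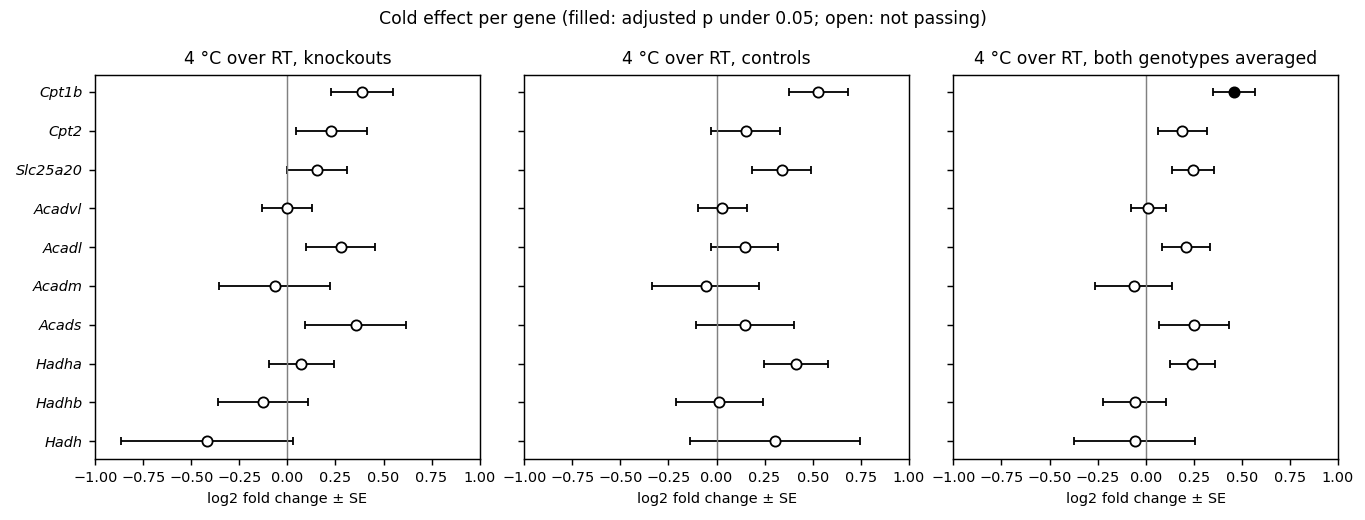
Cold effect on each gene as the log2 fold change of 4 °C over RT with its SE (horizontal), in knockouts, in controls and averaged over both; filled points passed an adjusted p of 0.05 in edgeR's quasi-likelihood test. The averaged Cpt1b change of 0.46 is the single filled point, and Hadh has the widest error bars.

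Between knockouts and controls no difference passed for any of the 10 by edgeR at either temperature. At RT 0 of 10 passed, beside 0% of all genes, with changes from -0.04 to 0.48 and a lowest adjusted p of 0.703, that of Hadha (0.32 ± 0.17). At 4 °C 0 of 10 passed, beside 0.00992% of all genes (1 gene), with changes from -0.24 to 0.21. The 95% interval for knockouts over controls in Cpt1b was -0.05 to 0.60 at RT and -0.18 to 0.45 at 4 °C. The unadjusted count was 0 of 10 at both temperatures, beside 7.06% and 6.28% of all genes, and DESeq2 called 0 of the 10, beside 0.00992% at RT and 0.0595% at 4 °C. The values of knockouts and controls were fully separate for 0 of the 10, beside 0.0595% of all genes at RT and 0.00992% at 4 °C. The genotype difference in the cold response passed for 0 of 10 and for 0% of all genes by edgeR. By an unadjusted p under 0.05 it held for 0 of 10 and 7.31% of all genes, and DESeq2 called 0 of the 10, beside 0.00992%. Medians of the 10 were 0.05 at RT and 0.04 at 4 °C, against -0.03 and 0.04 for all genes. With 1 library left out they ran from 0.0098 (without control 4 at RT) to 0.16 (without control 3) at RT, and from 0.0052 (without knockout 25) to 0.079 (without knockout 29) at 4 °C.

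Between animals of the same group the genes did not vary as 1 unit. Pearson correlations were computed over the 31 libraries for all 45 pairs, on log2 levels with the group means removed, with permutation p-values from 100000 draws adjusted over the 45. Of these, 12 were positive with an adjusted p under 0.05, 9 were negative and 24 did not pass, and the median r was 0.09. The strongest was between Acads and Hadha, at r = 0.89 and rho = 0.90 (permutation p = 1e-05, the smallest the draws can give, adjusted 6.4e-05), and it was 0.85 without the 2 libraries farthest in Acads level and 0.76 without the 7 lowest on PC1.

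Acads also varied with Hadh (r = 0.79, rho = 0.72), Cpt2 with Acadvl (r = 0.76, rho = 0.70), both with a permutation p of 1e-05 (adjusted 6.4e-05), and Cpt1b with Slc25a20 (r = 0.61, rho = 0.64, permutation p = 8e-05, adjusted 0.0004). Without the 2 farthest libraries these were 0.70, 0.74 and 0.56, and without the 7 libraries lowest on PC1 they were 0.52, 0.76 and 0.57. Acads and Hadhb varied in opposite directions (r = -0.75, rho = -0.64, permutation p = 1e-05, adjusted 6.4e-05), as did Acadm and Acads (r = -0.63, rho = -0.66, permutation p = 1e-04, adjusted 0.00045), at -0.71 and -0.64 without the 2 farthest. Acads with Hadhb was -0.45 without the 7 libraries lowest on PC1, and Hadha with Hadh, at 0.73 over all 31, was 0.43.

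Acadm and Hadhb varied together over the 31 libraries (r = 0.84, rho = 0.87, permutation p = 1e-05, adjusted 6.4e-05), at 0.86 without the 2 farthest libraries. In the 24 libraries left without the 7 lowest on PC1 the r was 0.90, and in those 7 alone it was -0.47. Acadm and Acads had an r of -0.55 in the 24 and 0.35 in the 7.

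**Figure D4:**
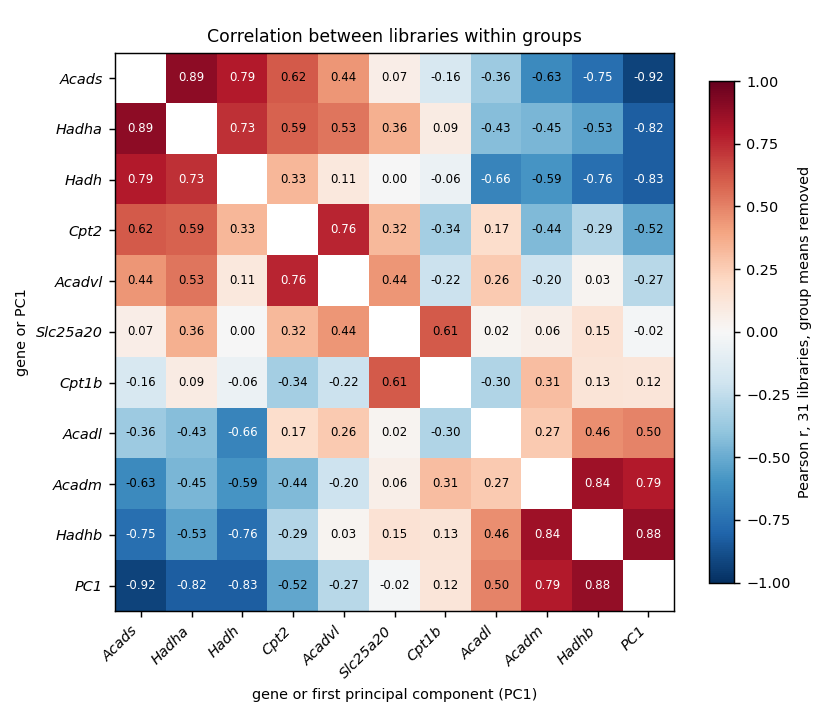
Pearson r between libraries for each pair of the 10 genes and for each gene with PC1, over 31 libraries with group means removed; red is positive and blue negative. Acads, Hadha and Hadh form one positive block at 0.73 to 0.89, and all 3 are negative with Hadhb, Acadm and PC1.

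The 2 subunits of the trifunctional protein, whose promoter windows share 200 bases, did not rise and fall together. Hadha and Hadhb had an r of -0.53 and a rho of -0.49 (permutation p = 0.00175, adjusted 0.00562), and -0.56 without the 2 farthest libraries. Without the 7 libraries lowest on PC1, r was -0.06 (n = 24), and in those 7 alone it was -0.33. Both genes followed PC1, in opposite directions, so leaving out its low end also narrows their ranges. The fall in r therefore cannot show which libraries the negative relation rests on. The ratio of Hadha to Hadhb levels ran from 0.994 to 5.14 (median 1.45) in knockouts at 4 °C, against 1.12 to 3.73 (median 1.33) in knockouts at RT. In controls it ran from 1.15 to 4.43 (median 1.61) at 4 °C, against 0.993 to 2.59 (median 1.18) at RT. The ranges overlapped throughout, and in each of knockouts at 4 °C, knockouts at RT and controls at 4 °C the highest ratio belonged to the library lowest on PC1.

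Several of the 10 followed PC1 closely, which is computed from all tested genes, these 10 among them. With group means removed, r with PC1 was -0.92 for Acads, -0.83 for Hadh, -0.82 for Hadha, 0.88 for Hadhb and 0.79 for Acadm, each with an adjusted permutation p of 2e-05 over 10 relations. In the 24 libraries left without the lowest 7 these were -0.79, -0.68, -0.66, 0.76 and 0.86. Cpt2 (r = -0.52, adjusted permutation p = 0.00423) and Acadl (r = 0.50, adjusted permutation p = 0.00587) passed too, at -0.46 and 0.29 in the 24. Cpt1b (r = 0.12), Slc25a20 (r = -0.02) and Acadvl (r = -0.27) did not pass. In the 24 libraries Cpt1b was at 0.024, Slc25a20 at -0.45 and Acadvl at -0.36, while in the 7 lowest Slc25a20 was at 0.72, so its value over all 31 joins opposite signs. PC1 itself varied with the share of counts in the 20 most abundant genes (r = -0.53, rho = -0.64, adjusted permutation p = 0.0084 over 4 relations) and was -0.47 with it in those 24. With the number of genes detected it had an r of 0.49, rho of 0.36 and an adjusted permutation p of 0.00968, which was 0.11 in those 24. Whether library composition or RNA state lies behind these relations was not tested. The spread of Hadh within groups was at the 94.5th percentile of the genes nearest to it in mean level. That of Acadm was at the 91.5th, that of Acads at the 85.6th and that of Hadhb at the 83.6th, while Cpt1b was at the 47.8th and Acadvl at the 28.4th.

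**Figure D5:**
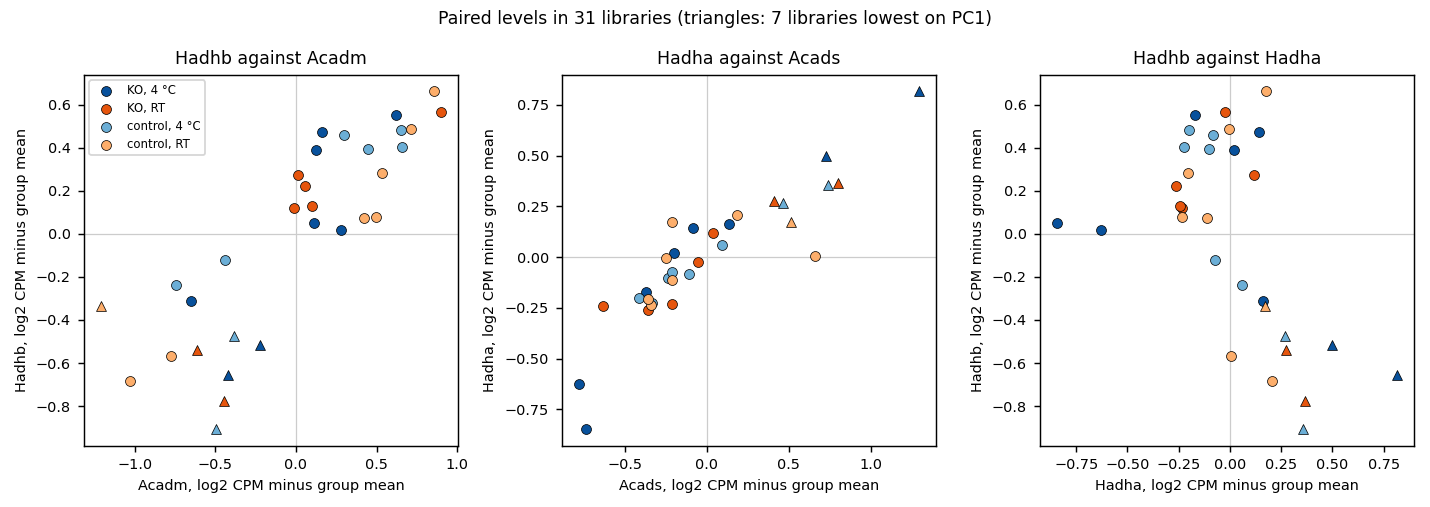
Centred log2 levels of 3 gene pairs in 31 libraries, coloured by group, with triangles for the 7 libraries lowest on PC1: Hadhb against Acadm, Hadha against Acads, and Hadhb against Hadha. Acads rises with Hadha and Acadm with Hadhb, and the downward trend of Hadhb with Hadha is drawn out by the triangles.

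The genes whose levels were most like the mean of the 10 over the 31 libraries were Fabp3, a muscle fatty acid binding protein (r = 0.85), Tm6sf1 (0.81), Uqcc1 (0.80), Sod3 (0.79) and Got1 (0.79). With group means removed they were Tm6sf1 (0.89), Ldhd (0.85), Fsd2 (0.85), Sod3 (0.81) and Nmrk2 (0.81). These values are descriptions of the same libraries and share their depth and composition. Each of the 10 is part of that mean, which raises its own r with it. Over the 31 libraries the r with the mean was 0.82 for Hadha, 0.72 for Slc25a20, 0.64 for Cpt2 and 0.61 for Acadvl. It was 0.57 for Acads, 0.48 for Cpt1b and 0.37 for Hadh, and near 0 for Acadl (0.08), Acadm (0.05) and Hadhb (-0.05).

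A further list held other spiral enzymes, electron carriers, thioesterases and genes of carnitine transfer and transport. Of its genes, 0 of 19 tested passed in the cold averaged over genotypes, beside 5.65% of all genes. Their median change was 0.09. Those with the smallest p were Cpt1c (-0.44 ± 0.19), the isomerase Eci1 (0.19 ± 0.08), the electron carrier subunit Etfb (0.20 ± 0.13) and Ech1 (0.11 ± 0.08). The liver form Cpt1a averaged 15.2 ± 4.09 CPM in knockouts at 4 °C, 14.2 ± 4.71 CPM in knockouts at RT, 15.1 ± 3.18 CPM in controls at 4 °C and 15.6 ± 7.81 CPM in controls at RT (SD), far below Cpt1b.

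Upstream of the mitochondrion, 3 of 18 genes of fatty acid uptake and activation rose in the averaged comparison and 0 fell. Of all genes 3.67% rose and 1.98% fell. Lpl, the lipase that frees fatty acids from circulating lipoproteins, had 572, 865 and 1075 CPM in knockouts at 4 °C, against 467, 567.8 and 666 CPM in knockouts at RT. Controls had 356, 680 and 904 CPM at 4 °C, against 317, 504 and 618 CPM at RT, and the averaged change was 0.48 ± 0.12 (adjusted p = 0.0137, edgeR). Dgat2, which completes triglyceride synthesis, changed by 0.46 ± 0.12 (adjusted p = 0.0167), and Dbi, the acyl-CoA binding protein, by 0.43 ± 0.12 (adjusted p = 0.0247). Adipocytes express Lpl and Dgat2 too, and their summed markers are given above; their part was not tested. The acyl-CoA synthetase Acsl6 just missed the threshold (-0.43 ± 0.13, adjusted p = 0.0501).

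Among 10 genes of malonyl-CoA control, the step that sets flux through CPT1, 1 rose and 1 fell, beside 3.67% and 1.98% of all genes. Prkab1, a regulatory subunit of AMP-activated kinase, rose by 0.28 ± 0.08 (adjusted p = 0.0335, edgeR). Prkaa2, the catalytic α2 subunit of that kinase, fell by 0.50 ± 0.13 (SE; adjusted p = 0.0141). In knockouts Prkaa2 had 11.98, 18.1 and 26.4 CPM at 4 °C, against 18.8, 37.9 and 44.997 CPM at RT, a change of -0.95 ± 0.18 (adjusted p = 0.00472). Controls had 20.1, 29.05 and 35.1 CPM at 4 °C, against 16.8, 33.2 and 37.5 CPM at RT, a change of -0.04 ± 0.17. The difference between the genotypes, -0.91 ± 0.25, did not pass over all genes (adjusted p = 0.452, edgeR). Without the 7 libraries lowest on PC1 the averaged Prkaa2 change no longer passed (adjusted p = 0.0636).

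Of 24 transcriptional regulators and PPAR targets, 2 rose and 2 fell, beside 3.67% and 1.98% of all genes. Ucp2, an uncoupling protein homologue and PPAR target, had 10.1, 24.1 and 45.2 CPM in knockouts at 4 °C, against 5.45, 6.13 and 9.69 CPM in knockouts at RT, without overlap. Controls had 5.53, 10.9 and 23.8 CPM at 4 °C, against 3.69, 4.88 and 6.203 CPM at RT, and the averaged change was 1.58 ± 0.19 (adjusted p = 4.55e-06, edgeR). Macrophages express Ucp2 as well, and their markers rose in 4 of 13; their part in this change was not tested.

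Esrrg, an estrogen-related receptor of oxidative muscle, had 11.7, 25.3 and 37.3 CPM in knockouts at 4 °C, against 12.9, 16.8 and 24.3 CPM in knockouts at RT. In controls the libraries did not overlap, with 20.6, 27.1 and 41.9 CPM at 4 °C, against 8.03, 13.1 and 15.7 CPM at RT. The change was 0.79 ± 0.14 averaged (adjusted p = 8.66e-04, edgeR) and 1.14 ± 0.20 in controls (adjusted p = 0.00576). Angptl4, a lipoprotein lipase inhibitor and PPAR target, fell by 1.27 ± 0.35 (adjusted p = 0.0237), and the corepressor gene Ncor1 fell by 0.29 ± 0.09 (adjusted p = 0.0493). Angptl4 no longer passed without the 7 libraries lowest on PC1 (adjusted p = 0.0654). Ncor1 passed neither without them (adjusted p = 0.151) nor without controls 1 and 2 at RT (adjusted p = 0.111).

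Of 21 genes of the citric acid cycle and mitochondrial mass, 1 rose and 0 fell, beside 3.67% and 1.98% of all genes. The gene that rose was the NADP-linked isocitrate dehydrogenase Idh2 (0.53 ± 0.11, adjusted p = 0.0045, edgeR). Cs, encoding citrate synthase, was at 0.25 ± 0.11 (adjusted p = 0.184, edgeR). In knockouts over controls 0 genes of these 5 lists passed by edgeR at either temperature, beside 0% of all genes at RT and 0.00992% at 4 °C.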

How the data were processed

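Gastrocnemius RNA of 31 rats was made into QuantSeq 3′ libraries, per the labels' protocols. The authors deposited raw counts of reads per gene and a second table of normalized signal, which is the same counts after division by library size factors (largest relative difference 5.25e-10); the counts alone were tested. The build (Rnor 6.0) and DESeq2 1.22.2 are named per the submitters' processing notes; the sources used here do not give the aligner, counter or strand setting, so reads of overlapping antisense genes cannot be told apart. The lowest gene total in the table was 93 counts, and 770 of the 11289 identifiers had no symbol. Totals of 6.56 to 11.9 M counts per library set the precision. All 105 pairs of libraries within groups differed beyond sampling noise (chi-square over its degrees of freedom at least 5.23).

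Counts were scaled by TMM and filtered by filterByExpr (minimum count 10, total 15), and edgeR 4.0.16 in R 4.3.3 fitted quasi-likelihood group means to all 31 libraries at once (27 residual degrees of freedom). P-values are two-sided and adjusted by Benjamini-Hochberg over 10082 genes per comparison, with a threshold of 0.05. SE is the change divided by √F. Levels on the log2 scale use a prior count of 2. DESeq2 1.42.0 and limma-voom 3.58.1, other scalings, other filters, PC1 as a covariate and leaving out libraries were the alternatives. The edgeR script was tested on simulated data. Genes named outside the 10 are those passing in a comparison, those with the 4 smallest p in the cold comparisons of each list, or the 5 most like the mean of the 10. Not every gene this rule names is printed, and 1 list is not reported here. The 10 genes and all lists were chosen with earlier results of these data known. No batch is named in the labels, and animals of a group have consecutive numbers, so a batch in that order and the group cannot be told apart; p-values measure the spread between animals of a group. Motifs were searched in RefSeq promoters of GRCr8, matched by symbol for 8 of 10 genes; no coordinate was converted between builds.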

Additional observations from a re-analysis of the deposited data

Results flagged for a closer look

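Among 40 sets of values, 1 per gene and group, 4 held a library far from the others of its group. The measure was Dixon's gap ratio (critical value 0.568 for 7 libraries and 0.526 for 8). These critical values mark about 1 in 20 sets of independent, normally distributed values. The CPM used here were not on a log scale and several genes vary together, so that rate may not hold. Acadl in knockout 28 at 4 °C was 462 CPM, with the nearest library at 857 CPM (ratio 0.540). Hadh in the same library was 10.01 CPM, with the nearest at 3.99 CPM (ratio 0.644). Hadh in control 17 at 4 °C was 8.24 CPM, with the nearest at 4.36 CPM (ratio 0.536). Both libraries were among the 7 lowest on PC1. Acadm in knockout 15 at RT was 462 CPM, with the nearest at 264 CPM (ratio 0.658), and that library also had the highest Hadhb of its group, 193 CPM.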

How the results depend on the processing

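No paired analysis was possible because animals are numbered 1 to 31 without repeats, so the groups share no replicate numbers. Averaged over genotypes, Cpt1b passed under every alternative run, including each library left out in turn (0.41 to 0.49). The number of the 10 passing was 2 in place of 1 without both sets of unusual libraries, a choice made after seeing the data, when Acadl passed too. The share of all genes passing in that fit is not given here. In controls it was 1 in place of 0 with DESeq2 and with PC1 as a covariate, and 0 to 1 with libraries left out in turn, where the 1 came without control 4 at RT. In knockouts it was 1 in place of 0 without controls 1 and 2 at RT, which changes the shared estimate of spread. In every such case the gene was Cpt1b. The median change of the 10 in controls was 0.32 without controls 1 and 2 at RT, against 0.15 with them.

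Directions turned in changes that had not passed. Hadha in knockouts was -0.044 without the 7 libraries lowest on PC1 and -0.043 without both sets. Averaged, Acadvl was -0.0048 with total counts, and Acadm was 0.084 and Hadhb 0.033 with PC1 as a covariate. With libraries left out in turn, Acadm ran from -0.13 to 0.024, Acadvl from -0.018 to 0.052, Hadh from -0.34 to 0.058 and Hadha in knockouts from -0.060 to 0.15. The cause was not tested.

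Over all genes, 570 passed averaged and 1274 did with PC1 as a covariate. In controls 86 passed, against 219 by DESeq2, 379 with PC1 (160 higher and 219 lower, against 60 and 26), 38 without controls 1 and 2 at RT and 53 without the 7 lowest on PC1. In knockouts 139 passed, against 322 by DESeq2, 674 with PC1, 53 with the knockout libraries alone, 379 without controls 1 and 2 at RT and 387 without both sets. A mean of at least 5 CPM removed Hadh, leaving 9 of the 10. Using only the groups compared gave no value for the averaged and genotype-difference comparisons, which need all 4. Hadh had the fewest counts of the 10, 6 to 98 per library.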
